A study of Tabanus nipponicus with 3 samples.

Results

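Transcripts of the cell cycle and DNA replication machinery were followed across the midguts of 3 individual horse flies. They were chosen by name: an assembled transcript, here called a unigene, was taken when the title of its first listed protein hit contained 1 of a set of words. The words named cyclins A, B, D and E, cyclin-dependent kinases (CDKs), replication licensing factors, DNA polymerases and primases, the sliding clamp PCNA, replication factor C, replication protein A, the origin recognition complex, aurora and polo kinases, kinetochore, centromere and spindle proteins, cell division cycle proteins, the anaphase-promoting complex, ribonucleoside-diphosphate reductase or geminin. Of 8039 unigenes, 94 matched, and the choice used no expression value.

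The flies were adult females of Tabanus nipponicus, a horse fly whose females take blood, caught in the wild and identified by morphology. All carried the genotype label WT and had no treatment, and the sources used here give neither their age nor whether they had fed. Each midgut gave 1 library of total RNA. All libraries form 1 group, female midgut (n = 3), so the design holds no contrast. Setting fly against fly leaves 1 sample on a side, and such differences carry no test.

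A dividing cell first licenses its replication origins. The origin recognition complex (ORC), with Cdc6 and Cdt1, loads the ring of MCM proteins that becomes the core of the replicative helicase, and geminin binds Cdt1 to stop licensing a second time. During S phase, polymerases and primase copy the DNA behind that helicase while PCNA, loaded by replication factor C (RFC), holds them on the template. Cyclins with their CDKs drive entry into S phase and mitosis, aurora and polo kinases run the spindle, and the anaphase-promoting complex (APC) ends mitosis by marking cyclins for destruction. In the Drosophila midgut, intestinal stem cells divide by mitosis, and maturing enterocytes copy their DNA without dividing, so replication genes and mitotic genes need not be used by the same cells.

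The 94 unigenes were sorted by the known role of the named protein. There were 18 for origin licensing, 19 for the replication fork, 2 for nucleotide supply, 10 cyclins and cell cycle kinases or their regulators, 10 for spindle, kinetochore and mitotic kinases, and 10 for the APC. These 69 are called the core, and they carried 62 distinct protein names. A further 6 were repair or mitochondrial polymerases. The remaining 19 matched the words but are known for other functions: 7 reverse transcriptases of mobile elements, 7 CDKs that act mainly outside the cell cycle and 5 other proteins. The median identity to the protein hit was 65.8% for the 94 and 65.5% for the table, and 51 of the 94 hits were proteins of Hermetia illucens, the black soldier fly.

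Values are FPKM, read numbers scaled by transcript length and library depth, as the authors deposited them. The libraries of flies 1, 2 and 3 held 31922570, 33797869 and 29308867 recovered reads, of which the 94 unigenes held 21771, 15360 and 26930 read pairs. Unigenes named as digestive enzymes, peritrophic matrix proteins and proton pumps of the midgut summed to 3.69%, 3.90% and 3.02% of all FPKM in flies 1, 2 and 3 (54 unigenes). Of 3 ovary markers, the putative vitellogenin receptor lay between 0.333 and 0.393 FPKM, and a chorion protein S38-like unigene had 3.28 FPKM in fly 1 and was listed at 0 in flies 2 and 3. The other, protein bicaudal D, had 9.53, 11.5 and 11.9 FPKM in flies 1, 2 and 3. The sums of fat body and muscle markers differed more between flies than the midgut sum. Fat body markers summed to 6.75, 24.3 and 97.3 FPKM in flies 1, 2 and 3 (9 unigenes), and muscle markers to 336, 365 and 758 FPKM (12 unigenes). Neuron markers summed to 71.0, 67.0 and 101 FPKM (6 unigenes). Single unigenes need not follow the sums. With a mean of at least 5 FPKM, 7 of 40 midgut and 0 of 10 muscle unigenes differed at least 4-fold between flies in FPKM + 1. The share of the table was 9.42%. The 10 most abundant unigenes of the table took 33.4%, 38.2% and 24.6% of all FPKM in flies 1, 2 and 3, which moves every other value of a fly together. For that reason counts and differences are also given after median-of-ratios scaling, which sets the typical unigene equal in the 3 flies.

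Cell cycle and replication transcripts were scarce in all 3 midguts. Together the 94 unigenes made up 0.115%, 0.0714% and 0.155% of summed FPKM in flies 1, 2 and 3, a mean of 0.114% ± 0.0418 (SD, n = 3), and the core 0.0688%, 0.0435% and 0.105%. The median of the mean levels was 4.15 FPKM for the 94 and 4.10 FPKM for the core, against 8.69 FPKM for the table. The most abundant core unigenes were a 70 kDa subunit of replication protein A (RPA), at a mean of 34.3 FPKM, PCNA at 30.4 FPKM and the M2 subunit of ribonucleotide reductase at 30.2 FPKM. All 94 were above 0 in every fly, as was 97.9% of the table. At 1 FPKM or more in every fly there were 61 of the 94 and 44 of the 69 core unigenes, against 81.6% of the table. By fly, 64, 44 and 67 of the 69 core unigenes reached 1 FPKM in flies 1, 2 and 3, against 86.4%, 85.8% and 95% of the table.

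Most of the machinery was lowest in fly 2. Among the 83 unigenes with a mean of at least 1 FPKM, 71 had their lowest value in fly 2, against 57.5% of the table. In the core 59 of 65 did. After median-of-ratios scaling the counts were 56 of 83 and 48 of 65, against 32.2% of the table. None of the 83 had its highest value in fly 2, against 12.4% of the table (9 of 83 against 33.7% after scaling). Only 8 of the 83 were lowest in fly 1, against 26.1% of the table, and 10 after scaling, against 27.9%. Only 4 were lowest in fly 3, against 16.4% of the table, and 17 after scaling, against 39.9%. Taken singly, fly 1 was above fly 2 in 75 of 83, against 66.7% of the table, and fly 3 was above fly 2 in 79, against 78.3%. After scaling these counts were 69, against 48.2% of the table, and 61, against 50.2%. In whole tissue, fewer cells of a type and less RNA per cell cannot be told apart.

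The size of the difference in fly 2 was taken as log2(FPKM + 1) in fly 2 minus the mean of flies 1 and 3. Its median was -0.67 for the 83 unigenes and -0.73 for the core, against -0.33 for the table. After scaling the medians were -0.31 for the 83, -0.46 for the core and 0.01 for the table. The median SD between flies of log2(FPKM + 1) was 0.47 for the 83, 0.49 for the core and 0.38 for the table, and after scaling 0.35, 0.38 and 0.32. Counting error was smaller than this spread. Across the 83 unigenes the coefficient of variation between flies had a median of 40.4% and the counting error a median of 8.80%, against 30.1% and 5.46% for the table.

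Fly 3 most often held the highest value, in 64 of 83 unigenes and 51 of 65 in the core, but 66.1% of the table did so too. After scaling these counts were 41 of 83 and 35 of 65, against 39.7% of the table. Fly 1 and fly 3 are compared by role after the roles are described.

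Among the complexes, the MCM helicase had the largest median difference in fly 2. MCM proteins form the ring that unwinds DNA at the fork, and all 6 subunits, Mcm2 to Mcm7, were represented by 1 unigene each. Their summed level was 28.6, 9.33 and 76.1 FPKM in flies 1, 2 and 3. Each of the 6 was lowest in fly 2 and highest in fly 3, with and without scaling. The median difference of fly 2 from the mean of the others was -1.84, or -1.53 after scaling.

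**Figure D1:**
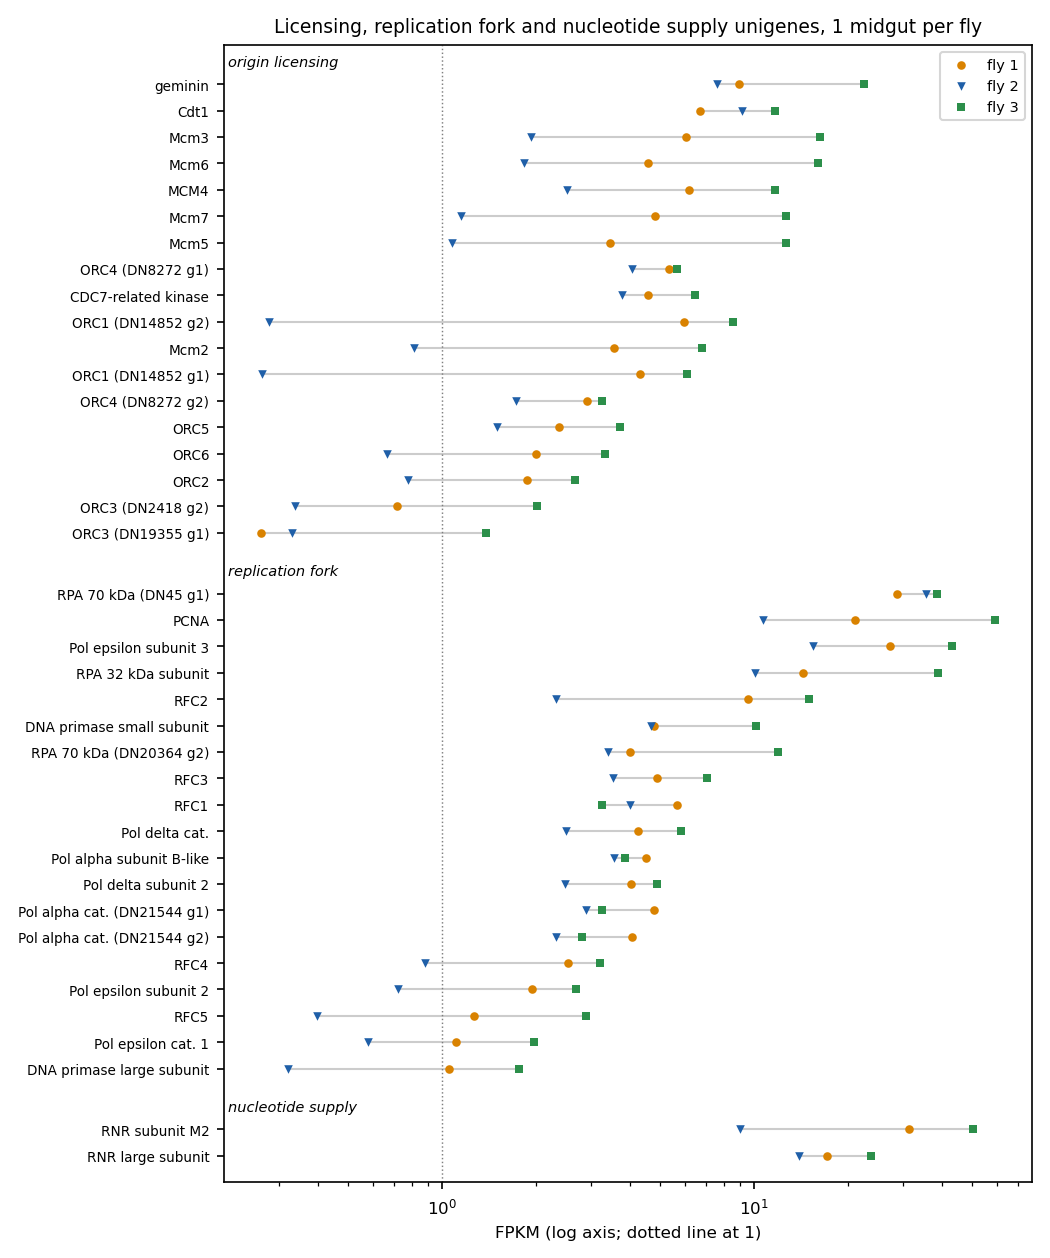
FPKM on a log axis of each unigene for origin licensing, the replication fork and nucleotide supply, with 1 point for each of the 3 flies, a grey line over their range and a dotted line at 1 FPKM. Fly 2 (triangles) lies lowest for 16 of the 17 licensing unigenes with a mean of at least 1 FPKM and 17 of the 19 fork unigenes, and both ORC1 unigenes fall below 0.3 FPKM in fly 2 alone.

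Mcm5 (TRINITY_DN6267_c0_g1_i4) had 3.45, 1.08 and 12.7 FPKM in flies 1, 2 and 3. Mcm7 (TRINITY_DN2422_c0_g1_i5) had 4.82, 1.15 and 12.7 FPKM, and Mcm6 (TRINITY_DN11107_c0_g1_i4) had 4.58, 1.84 and 16 FPKM. Fly 3 was thus far above fly 2, with fly 1 between them. The ratio of fly 3 to fly 2 was 11.8 for Mcm5, with a 95% exact binomial interval of 8.57 to 16.6. Ratios here and in what follows are of FPKM as deposited, and their intervals cover counting error only. Mcm3 had 6.07, 1.93 and 16.2 FPKM, MCM4 6.18, 2.53 and 11.7 FPKM, and Mcm2 3.55, 0.816 and 6.81 FPKM. MCM4 had the smallest ratio of fly 3 to fly 2 among the 6, at 4.64 with an interval of 3.79 to 5.72.

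The origin recognition complex, the platform on which the MCM ring is loaded, was represented by 9 unigenes for its subunits 1 to 6. They summed to 25.8, 9.96 and 36.7 FPKM in flies 1, 2 and 3. Of the 8 with a mean of at least 1 FPKM, all 8 were lowest in fly 2 (7 after scaling). ORC1, an ATP-binding subunit whose protein level changes with the cell cycle in Drosophila, stood furthest apart. It was split over 2 unigenes that align to different ends of ORC1 proteins. The unigene for the first part had 4.32, 0.265 and 6.10 FPKM in flies 1, 2 and 3, from 108, 7 and 140 read pairs. The unigene for the last part had 5.97, 0.280 and 8.54 FPKM, from 121, 6 and 159 read pairs. Both stretches were therefore low in fly 2, above the floor of 3 read pairs used here, and several-fold higher in flies 1 and 3. For the last part the ratio of fly 1 to fly 2 was 21.4 (interval 9.53 to 59.3).

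The other subunits of ORC differed less. ORC4 had 5.36, 4.06 and 5.67 FPKM in flies 1, 2 and 3 for its first part and 2.92, 1.73 and 3.26 FPKM for its last part. The ratio of fly 1 to fly 2 for the first part of ORC4 was 1.32, and its interval of 0.918 to 1.90 held 1. ORC3 was the scarcest, with unigene means of 0.658 and 1.03 FPKM.

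The regulators of licensing did not share 1 order. Cdt1, the loading factor, was selected because its title, DNA replication factor Cdt1, holds the words for replication factor C. It had 6.73, 9.18 and 11.7 FPKM in flies 1, 2 and 3, and was the only 1 of the 17 licensing unigenes with a mean of at least 1 FPKM that was not lowest in fly 2. Geminin, its inhibitor, had 8.95, 7.60 and 22.6 FPKM. Flies 1 and 2 were close for geminin, with a ratio of 1.18 (interval 0.918 to 1.51), and fly 3 was 2.53 times fly 1 (interval 2.06 to 3.11). A CDC7-related kinase, of the family that fires licensed origins, had 4.59, 3.78 and 6.47 FPKM.

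At the fork, PCNA followed the MCM order. It had 21.1, 10.7 and 59.4 FPKM in flies 1, 2 and 3, and fly 3 was 5.54 times fly 2 (interval 4.74 to 6.51). The clamp loader RFC summed to 24, 11.1 and 31.4 FPKM over its 5 subunits. RFC2 had 9.60, 2.31 and 15 FPKM, whereas RFC1, the large subunit, had 5.67, 4.00 and 3.26 FPKM and was lowest in fly 3. The subunits of 1 complex thus differed in the order of the flies, and this also held after scaling.

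RPA coats single-stranded DNA at the fork and in repair. Its 32 kDa subunit had 14.4, 10.1 and 38.9 FPKM in flies 1, 2 and 3. A 70 kDa subunit had 28.8, 35.5 and 38.6 FPKM over a unigene of 3121 bases that aligned at 40.8% identity. A second unigene named for the 70 kDa subunit, of 469 bases and 69.7% identity, had 4.01, 3.41 and 11.9 FPKM. The second had the order of the 32 kDa subunit and the first did not, and their alignments to the protein share 119 residues.

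The replicative polymerases were low and split by type. Polymerase alpha, which with primase starts each strand, summed to 13.4, 8.77 and 9.93 FPKM in flies 1, 2 and 3, and all 3 of its unigenes were highest in fly 1. They were lowest in fly 2 as deposited and lowest in fly 3 after scaling. Polymerase delta summed to 8.28, 4.98 and 10.8 FPKM (2 unigenes). Polymerase epsilon summed to 30.4, 16.8 and 47.9 FPKM, of which its small histone-fold subunit 3 had 27.3, 15.5 and 43.3 FPKM and its catalytic subunit 1.11, 0.579 and 1.98 FPKM. Both delta and epsilon were lowest in fly 2 and highest in fly 3 as deposited. The small subunit of primase had 4.79, 4.68 and 10.2 FPKM, nearly level between flies 1 and 2.

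Ribonucleotide reductase makes the deoxyribonucleotides for replication from a large and a small subunit. The small subunit, M2, had 31.3, 9.05 and 50.4 FPKM in flies 1, 2 and 3, and fly 3 was 5.57 times fly 2 (interval 4.85 to 6.41). The large subunit had 17.1, 13.9 and 23.8 FPKM, and fly 3 was 1.71 times fly 2 (interval 1.58 to 1.85). Both subunits were lowest in fly 2, with and without scaling, and the small subunit varied more. After scaling the large subunit was nearly level, at 17.6, 16.6 and 18.8 FPKM, and the small subunit had 32.1, 10.8 and 39.8 FPKM.

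A rule of size for strong variation between flies was met by 7 unigenes: a mean of at least 5 FPKM and at least a 4-fold gap between the highest and the lowest fly in FPKM + 1. They were Mcm3, Mcm5, Mcm6, Mcm7, PCNA, RFC2 and ribonucleotide reductase M2. All 7 act in S phase, all were lowest in fly 2 and highest in fly 3, and none of the cyclin, spindle or APC unigenes was among them. The filter bears on both points. Mcm5, Mcm6 and Mcm7 were above 5 FPKM in fly 3 alone, so they passed through the fly where they were highest. Only 5 unigenes of the cyclins and kinases, 3 of the spindle group and 2 of the APC had a mean of at least 5 FPKM. They were 7 of the 40 members with a mean of at least 5 FPKM, against 9.42% of the table, and the share of the table that was variable and lowest in fly 2 was 5.16%. After scaling, Mcm3, Mcm5, Mcm6 and Mcm7 still met the rule. These were 4 of the 40, near the share of the table, 7.78%. With the mean set at 1 FPKM instead of 5, Mcm2 and both ORC1 unigenes joined, making 10 of 83, against 10.2% of the table. All 10 were lowest in fly 2, so 10 of 83 were both variable and lowest in fly 2, against 5.19% of the table. Among the variable unigenes of the table, 383 of 750 were lowest in fly 2. Just inside the threshold was RFC2, at 4.83-fold, and just outside were MCM4 and the 32 kDa subunit of RPA, at 3.61-fold and 3.60-fold. The rule needs both ends of the range: without fly 2, or without fly 3, no member met it.

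Cyclins and their kinases were mixed in order. CDK1, the mitotic kinase, had 7.71, 1.46 and 6.79 FPKM in flies 1, 2 and 3. Fly 1 was 5.29 times fly 2 (interval 3.45 to 8.41), and flies 1 and 3 did not differ beyond counting error, with a ratio of fly 3 to fly 1 of 0.880 (interval 0.674 to 1.15). CDK2, the partner of cyclin E in S phase, had 6.78, 3.58 and 10.03 FPKM, and CDK7, which activates other CDKs, had 6.88, 4.30 and 6.89 FPKM. An inhibitor named CDK inhibitor 1B, of the family of Drosophila dacapo, had 11.9, 12.6 and 17.9 FPKM and was not low in fly 2. CDK6 had 1.77, 1.79 and 3.97 FPKM, level between flies 1 and 2. A CDK2-associated protein had 12.3, 11.2 and 18.6 FPKM, highest in fly 3.

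Cyclin-A, used in S phase and early mitosis, had 3.98, 2.75 and 6.18 FPKM in flies 1, 2 and 3. Cyclin-E, of the S phase entry step, had 0.971, 0.290 and 1.95 FPKM. The mitotic cyclin-B had 3.05, 0.462 and 1.60 FPKM, from 106, 17 and 51 read pairs, and cyclin-B3 had 1.33, 0.132 and 1.17 FPKM, from 57, 6 and 46 read pairs. Cyclins A and E were thus highest in fly 3 and cyclin-B highest in fly 1, with all 4 lowest in fly 2. For cyclin-B3, flies 1 and 3 did not differ beyond counting error, with a ratio of fly 3 to fly 1 of 0.879 (interval 0.583 to 1.32).

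**Figure D2:**
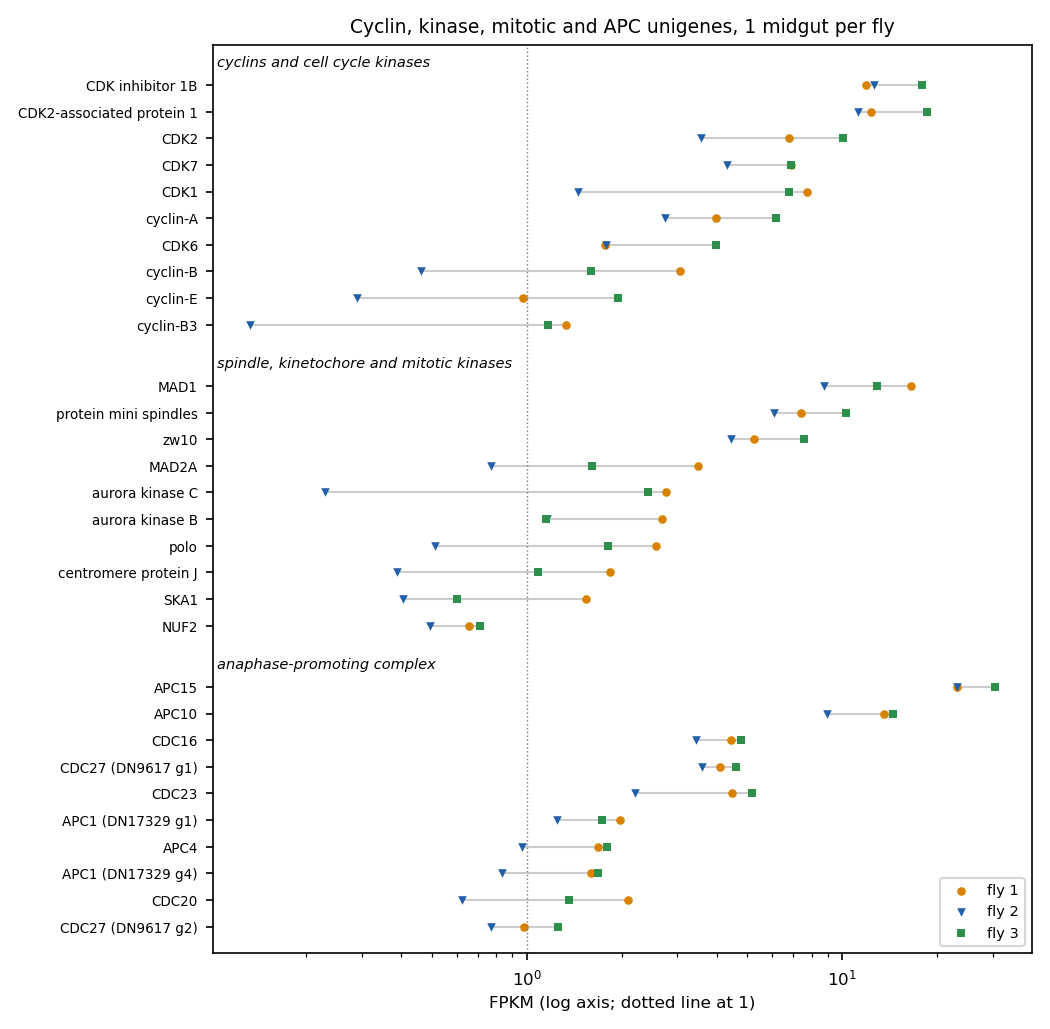
FPKM on a log axis of each unigene of the cyclins and cell cycle kinases, of the spindle, kinetochore and mitotic kinases, and of the APC, with 1 point for each of the 3 flies, a grey line over their range and a dotted line at 1 FPKM. In the middle block fly 1 (circles) lies highest for 6 of the 8 unigenes with a mean of at least 1 FPKM, whereas in the APC block the 3 flies lie close together and fly 2 is lowest for 10 of 10.

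Most transcripts of the spindle and the mitotic kinases chosen by name stood highest in fly 1. Of the 8 with a mean of at least 1 FPKM, 6 were highest in fly 1, against 21.6% of the table, and the same number was counted after scaling, against 26.6% of the table. The 3 mitotic kinases summed to 8.02, 1.90 and 5.38 FPKM in flies 1, 2 and 3. Polo, which acts in spindle assembly and cytokinesis, had 2.57, 0.513 and 1.81 FPKM. A unigene named aurora kinase C had 2.76, 0.230 and 2.43 FPKM, and 1 named aurora kinase B, the kinase of the chromosomal passenger complex, had 2.69, 1.16 and 1.15 FPKM. All 3 kinases were highest in fly 1, but aurora kinase C was close between flies 1 and 3, and aurora kinase B was no higher in fly 3 than in fly 2.

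In the spindle checkpoint, which holds anaphase until chromosomes are attached, MAD1 had 16.5, 8.73 and 12.9 FPKM in flies 1, 2 and 3 and MAD2A had 3.48, 0.769 and 1.61 FPKM. Fly 1 was 4.52 times fly 2 for MAD2A (interval 2.31 to 9.67), from 47 and 11 read pairs. Centromere protein J, needed for building centrioles, had 1.84, 0.388 and 1.09 FPKM. The kinetochore protein SKA1 had 1.54, 0.406 and 0.602 FPKM, and NUF2 0.654, 0.494 and 0.712 FPKM from 4 or 5 read pairs a fly, too few to order the flies. Mini spindles, a microtubule polymerase, and zw10, which recruits checkpoint proteins, were the 2 of the 8 with their highest value in fly 3. Mini spindles had 7.41, 6.07 and 10.3 FPKM, and zw10 had 5.24, 4.43 and 7.55 FPKM.

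APC transcripts were the most even of the core, with a median coefficient of variation between flies of 24.2%, against 68.0% for licensing and 48.6% for the fork. All 10 unigenes were lowest in fly 2 as deposited, against 57.5% of the table, and 6 after scaling, against 32.2%. The median difference of fly 2 from the others was -0.41, or -0.16 after scaling. APC15 had 23.2, 23.2 and 30.5 FPKM in flies 1, 2 and 3, and APC10 had 13.6, 8.95 and 14.5 FPKM. CDC20, the activator that docks substrates at the start of anaphase, had 2.09, 0.625 and 1.37 FPKM. Its coefficient of variation between flies was 53.8%, and that of CDC23, a scaffold subunit with 4.48, 2.20 and 5.17 FPKM, was 39.3%, but on the log2(FPKM + 1) scale the SD was 0.47 for CDC20 and 0.50 for CDC23. Fly 1 was 3.34 times fly 2 for CDC20 (interval 1.97 to 5.93). CDC20 was highest in fly 1 and lowest in fly 2, an order shared with cyclin-B, polo and MAD2A. Its ratio of fly 3 to fly 1 was 0.654, with an interval of 0.420 to 1.004 that held 1.

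The groups of members differed in how often fly 3 was above fly 1, a difference that carries no test. Among unigenes with a mean of at least 1 FPKM, fly 3 was above fly 1 in 17 of 17 for licensing, 15 of 19 for the fork and 2 of 2 for nucleotide supply, but in 2 of 8 for the spindle and mitotic kinases, against 71.2% of the table. After scaling the counts were 15 of 17, 13 of 19, 2 of 2 and 2 of 8, against 49.6% of the table. For cyclins and kinases the count was 7 of 9, or 6 of 9 after scaling. For the APC it was 8 of 10 as deposited and 1 of 10 after scaling, so its direction rests on the scaling. The median log2 difference of fly 3 minus fly 1 was 0.72 for licensing and -0.34 for the spindle group, against 0.32 for the table, and after scaling 0.38, -0.61 and -0.01. Mitosis unigenes outside the name rule did not share the order of the 8 spindle members. In these 16, from the pathway list described with the other genes of the pathway, fly 3 was above fly 1 in 11 and the highest value was in fly 1 in 3, in fly 2 in 3 and in fly 3 in 10. Their median log2 difference of fly 3 minus fly 1 was 0.29, or -0.02 after scaling, close to the table.

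**Figure D3:**
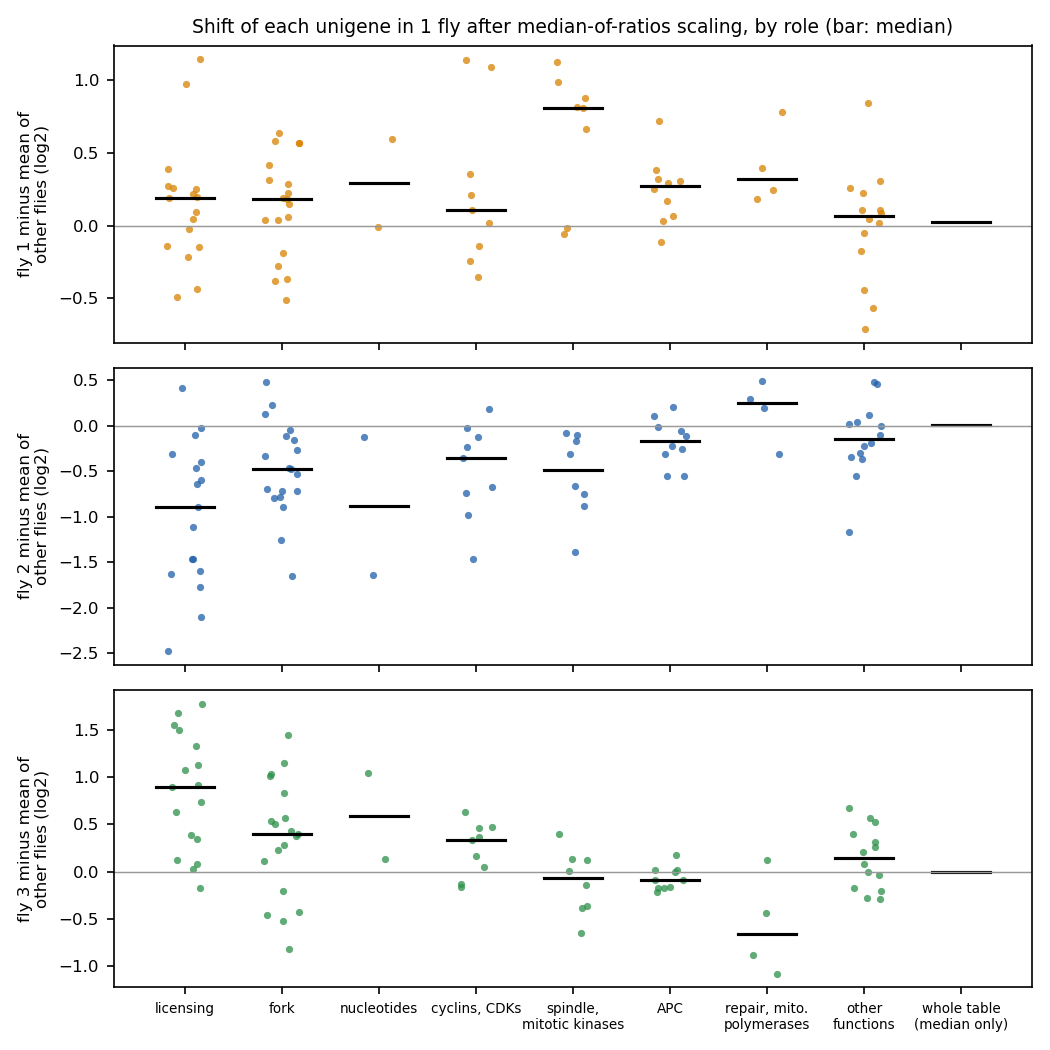
Difference of each unigene with a mean of at least 1 FPKM in 1 fly from the mean of the other flies, on the log2(FPKM + 1) scale after median-of-ratios scaling, by role, in fly 1 (top), fly 2 (middle) and fly 3 (bottom), with bars at medians. In fly 2 the licensing median lies at -0.89 and the fork at -0.47, against 0.01 for the table, and in fly 1 the spindle group lies at 0.81, above all other roles.

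**Figure D4:**
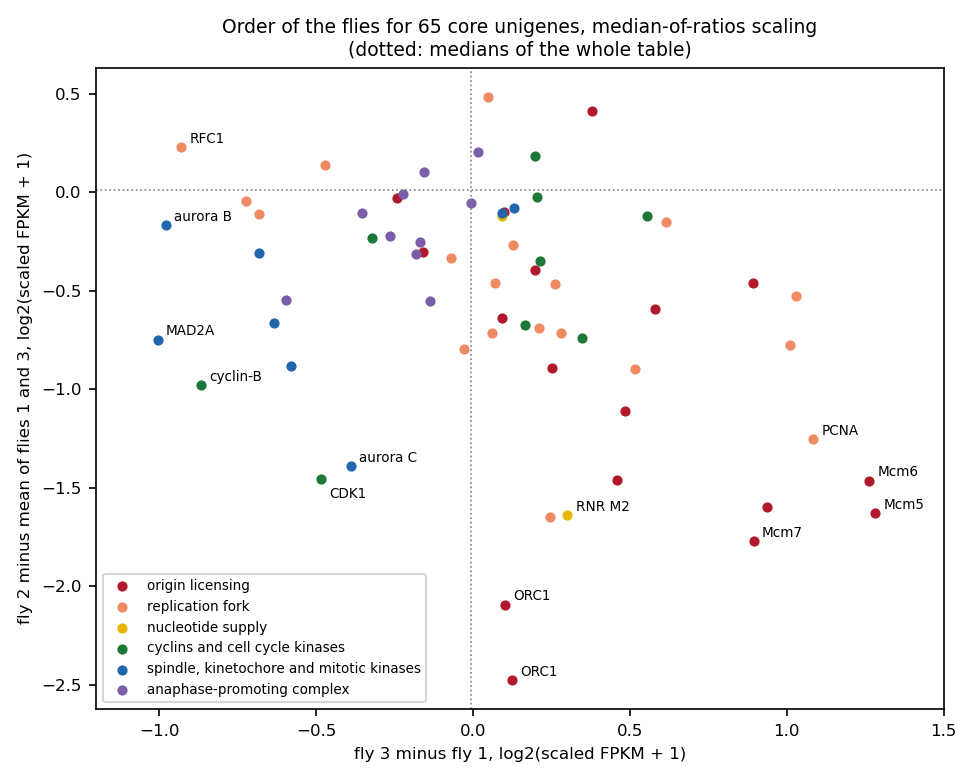
For each of the 65 core unigenes with a mean of at least 1 FPKM, the difference of fly 3 minus fly 1 (horizontal) is set against fly 2 minus the mean of flies 1 and 3 (vertical), on the log2(FPKM + 1) scale after median-of-ratios scaling, with dotted lines at the medians of the table. MCM unigenes and PCNA lie at the lower right, ORC1 at the bottom near the middle, and MAD2A, cyclin-B, CDK1 and the aurora kinases to the left.

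Apart from the 2 nucleotide supply unigenes, the licensing group had the lowest median in fly 2, -1.11 from the other flies, followed by the fork at -0.78, the spindle group at -0.74 and cyclins and kinases at -0.67. After scaling these medians were -0.89, -0.47, -0.48 and -0.35, against 0.01 for the table. The median of the core was still -0.31 after scaling when the MCM and ORC unigenes were left out. The pattern in fly 2 was thus not carried by the MCM and ORC unigenes alone.

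The polymerases of repair and mitochondria were mixed. The accessory subunit of the mitochondrial polymerase, gamma-2, had 38.1, 32.1 and 35.7 FPKM in flies 1, 2 and 3. Polymerase zeta, which copies across damaged bases, had 12.2, 8.19 and 5.98 FPKM in the unigene for the last part of its catalytic subunit and 4.44, 4.02 and 2.62 FPKM in that for the first part, lowest in fly 3 in both. Polymerase iota, another of this kind, had 10.2, 6.83 and 12.9 FPKM, lowest in fly 2 as most of the core was, also after scaling. Polymerase eta had 0.590, 0.464 and 1.75 FPKM, in the same order, and polymerase theta, of end joining, had 0.994, 0.981 and 0.640 FPKM. After scaling, the median of the 4 repair and mitochondrial unigenes with a mean of at least 1 FPKM in fly 2 was 0.25 above the other flies.

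Pairs of unigenes with the same protein name were compared inside each library. There were 8 such pairs, and in 7 the 2 unigenes aligned to stretches of the protein that share no residue, as pieces of 1 transcript would, though most pairs were numbered on hits from different species. The 3 flies came in the same order in 5 of the 8 pairs, the lowest fly was the same in 6 and the highest in 7. Of the 83 members with a mean of at least 1 FPKM, 71 were lowest in fly 2 and 64 highest in fly 3. Unrelated members would therefore often agree too, and these counts do not show that the pieces belong together. Both pieces of ORC1, ORC4, polymerase alpha, polymerase zeta and CDC27 gave 1 order. The pieces of ORC3, with 3 to 31 read pairs a fly, and of APC1, with 16 to 80, did not, nor did the RPA 70 kDa unigenes, of which the longer held 1433 to 1871 read pairs a fly.

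Other genes of the same pathway, taken by the words of a list, gave 80 unigenes outside the rule, all with a mean of at least 1 FPKM. The list was made with earlier results of these data known. Of these, 63 were lowest in fly 2, and 45 after scaling, beside 57.5% and 32.2% of the table. Their median difference in fly 2 was -0.53, between the core at -0.73 and the table at -0.33. By list, the 24 unigenes of the fork and nucleotide synthesis were most like the replication members. Of these 21 were lowest in fly 2, 19 after scaling, and their median after scaling was -0.48. The median after scaling was 0.05 for G1 and S control (11 unigenes), -0.19 for chromosome structure (21), -0.06 for mitosis (16) and -0.06 for checkpoints (8).

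The most abundant of the fork list was thymidylate kinase, which makes a precursor of thymidine triphosphate, with 39.3, 18.6 and 33.2 FPKM in flies 1, 2 and 3. Subunit B of chromatin assembly factor 1, which places histones on new DNA, had 4.13, 1.80 and 10.3 FPKM, and the mitotic motor Klp61F had 15.8, 8.11 and 38.9 FPKM. Both met the rule for strong variation in the order of the MCM proteins. A unigene for DNA ligase 3, a repair enzyme, also met it with 2.48, 4.25 and 14.3 FPKM, but was lowest in fly 1. These were 3 of the 44 pathway unigenes with a mean of at least 5 FPKM, against 9.42% of the table. After scaling none of the 3 had a 4-fold gap. The scaled values were 4.23, 2.14 and 8.14 FPKM for chromatin assembly factor 1 subunit B. They were 16.2, 9.68 and 30.7 FPKM for Klp61F, and 2.54, 5.07 and 11.3 FPKM for DNA ligase 3. Cyclin-K, a partner of transcriptional kinases and the most abundant of the G1 and S list, had 25.1, 21.4 and 29.8 FPKM. In the other lists the most abundant were the cohesin subunit SMC1A, with 21.9, 17 and 28.2 FPKM, and the stress protein GADD45 alpha, with 20.1, 13.3 and 17.8 FPKM.

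Markers of gut stem and progenitor cells were few. The 4 found, Notch, an achaete-scute protein and 2 named for the Drosophila progenitor factor escargot, summed to 28.3, 20.6 and 35.7 FPKM in flies 1, 2 and 3, and all 4 were lowest in fly 2 (3 after scaling), beside 57.5% of the table (32.2% after scaling), too few to set apart from that share. Notch had 1.92, 1.01 and 3.87 FPKM, and the achaete-scute unigene had 4.06, 1.93 and 5.88 FPKM. Fat body, muscle and hemocyte markers were lowest in fly 1 or close between flies 1 and 2, and highest in fly 3. The hemocyte list summed to 7.21, 16.9 and 21.0 FPKM (8 unigenes). The part of these cells in the replication and mitotic values was not tested.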

How the data were processed

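RNA sequencing covered the midguts of 3 flies. Per the file headers, the deposited table holds FPKM for each unigene in each fly, with its length, its protein hits and the percent of identical residues in the first hit, in the submitters' Trinity numbering. Assembler settings, aligner and counter: not given in the sources used here. Fly 3's column, of the third replicate, carries the number 4 and was matched through its description.

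Reads were recovered as FPKM times length, divided by the smallest value, and 97.1%, 97.3% and 97.3% of values in flies 1, 2 and 3 came out whole within 0.001. Read pairs were taken as 2 reads each. No count model was run, since 1 group offers no contrast. Intervals are exact binomial at 95%. Levels are log2(FPKM + 1), which understates differences of low unigenes. The median-of-ratios factors were 0.976, 0.838 and 1.27. Filters were a mean of 1 FPKM, or 5 FPKM for variable unigenes.

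Members with a mean of at least 5 FPKM could be named singly. Of the others, those named were the highest and lowest of a role, those with a large SD and, chosen after their values were seen, the rest. Members, roles and lists were chosen with earlier results of these data known, and names that matched a list word without the meaning were removed after the names were seen. Python 3.11.15, numpy 2.4.6, pandas 2.3.3 and scipy 1.17.1 were used, with scripts tested on simulated data.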

Additional observations from a re-analysis of the deposited data

How the results depend on the processing

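Of 69 values recomputed over 11 results, 59 kept their direction and stayed close, 9 moved further and 1 reversed. Close meant within 1.5 times for counts and for the median SD, and otherwise within the spread between flies. Within that spread the median difference was -0.31 in fly 2 after scaling, against -0.67, and 0.16 in fly 3, against 0.59. The reversal was the median difference of the members in fly 1 from the other flies, 0.10 as reported and -0.40 to 0.52 when leaving out each other fly, where -0.40 is fly 1 against fly 3 alone. The share of FPKM was 0.165% without the 10 most abundant unigenes of the table, against 0.114%, and 0.0934% to 0.135% leaving out 1 fly. The count of 7 variable members was out of 40 with a mean of at least 5 FPKM, against 9.42% of the table. It was 4 of 40 after median-of-ratios scaling, against 7.78% of the table, and 4 of 28 with that scaling in the core alone. It was 17 at a 2-fold threshold and 0 to 7 leaving out 1 fly, settings for which no share of the table was computed. Of 83 members, 19 were highest in fly 1 as deposited, against 21.6% of the table, and 33 after scaling, against 26.6%. In fly 3 it was 64 as deposited, against 66.1% of the table, and 41 after scaling, against 39.7%. In the core 35 of 65 were highest in fly 3 after scaling. The scaling in the core and the scaling with a mean of at least 1 FPKM were chosen after seeing the data. The latter gave 6 variable members of 83, and no share of the table was computed for it. Matching the words in any listed title gave the same 94 members. No paired analysis was possible because the flies form 1 group. Counting error limits unigenes with under 10 read pairs in a fly, ORC1 in fly 2 among them.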

Other observations

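Several unigenes met the name rule for reasons other than the cell cycle, and some stood high in the midgut. Calcyclin-binding protein, an adaptor in protein degradation in mammals, was the most abundant of the 94, with 129, 43.2 and 131 FPKM in flies 1, 2 and 3. Fly 2 was low for it as well, and fly 1 was 2.99 times fly 2 (95% exact binomial interval 2.77 to 3.22, counting error only). Spindle-E, a helicase known from the piRNA pathway of the Drosophila germ line, had 11.5, 7.88 and 13.3 FPKM. DPIT47, a chaperone partner that binds polymerase alpha in Drosophila, had 12.8, 15 and 15.7 FPKM and was lowest in fly 1. CDC5-like, a splicing factor, had 7.90, 5.52 and 10.9 FPKM, and CCAR1-like had 12.3, 8.31 and 17.2 FPKM, both lowest in fly 2.

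The 7 kinases of the CDK family that act mainly outside the cell cycle overlapped with the cell cycle CDKs in fly 2, though their median differed less. CDK11B, a regulator of splicing and transcription, had 13.9, 12.4 and 16.2 FPKM in flies 1, 2 and 3, and CDK14 had 10.5, 6.72 and 17.5 FPKM. CDK9, which frees paused RNA polymerase II, had 7.20, 5.30 and 11.8 FPKM, and CDK5 had 6.54, 4.80 and 8.37 FPKM. The median difference of fly 2 from the other flies was -0.48 for the 6 with a mean of at least 1 FPKM, or -0.14 after median-of-ratios scaling, against -0.80 and -0.45 for the 4 cell cycle CDKs. CDK1 (-1.75) and CDK2 (-1.02) lay below all 6 in fly 2 as deposited. CDK14 (-0.92) and CDK9 (-0.70) lay below the cell cycle kinases CDK7 (-0.57) and CDK6 (-0.41). The difference of the medians was not tested.

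The 7 reverse transcriptase unigenes of mobile elements, mostly of the jockey family, did not follow the replication order. They summed to 6.88, 9.36 and 13.1 FPKM in flies 1, 2 and 3. The 3 with a mean of at least 1 FPKM were all lowest in fly 1 and highest in fly 3 as deposited. A jockey-like unigene had 23, 21 and 1 read pairs in flies 1, 2 and 3, and another jockey unigene had 2, 3 and 12 read pairs. Copies of such elements can share reads, so values of single unigenes are uncertain.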
